A study of Homo sapiens with 39 samples.

Results

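The epithelial-mesenchymal state genes are 10 genes that are used to place a cell between an epithelial and a mesenchymal state. They were chosen by name (CDH1, EPCAM, VIM, ZEB1, ZEB2, SNAI1, SNAI2, TWIST1, FN1 and CDH2) and were present in all 13 deposited tables, as 10 of 45435 gene rows. Levels are given as TPM, a transcript abundance scaled for transcript length and to the same total in each library, so that levels of different genes can be set side by side. Of the 10 genes, 6 averaged 1 TPM or more across the 39 libraries and entered the tests (EPCAM, CDH1, SNAI1, VIM, FN1 and SNAI2), while ZEB1, CDH2, ZEB2 and TWIST1 lay under that mean and are given mainly as levels.

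HCT116 is a human colorectal cancer line. Parental cells were the Flp-In T-REx host, which held no HNF4A construct. Each of the 12 lines was stable and held 1 human isoform of HNF4A (hepatocyte nuclear factor 4 alpha, a nuclear receptor of liver and gut epithelium) with GFP at its C-terminus and 1 insertion site. Every group had 3 libraries of poly(A) RNA. All cells, the parental ones included, received doxycycline at 2.5 µg/ml for 48 h, the agent that switches the construct on. All had been maintained in blasticidin S (5 µg/ml), the parental cells also in zeocin (100 µg/ml) and the lines also in hygromycin B (100 µg/ml), and these selection agents were withdrawn at induction. No group made GFP alone, and each isoform is represented by 1 line, so an isoform cannot be told apart from GFP, from the earlier hygromycin B or from the derivation of its line. The labels do not say whether the 3 libraries of a group came from separate cultures, so p-values measure only the spread between these libraries.

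E-cadherin, the product of CDH1, joins neighbouring epithelial cells, and EpCAM is an adhesion protein of epithelial surfaces. When epithelial cells turn mesenchymal, the zinc finger repressors SNAI1, SNAI2, ZEB1 and ZEB2 and the helix-loop-helix factor TWIST1 repress CDH1, while the intermediate filament protein vimentin (VIM), the matrix protein fibronectin (FN1) and N-cadherin (CDH2) become abundant. Many carcinoma lines show a part of both programmes, and HNF4A is known as a factor that maintains epithelial differentiation in liver and gut.

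The promoters of VIM and FN1 are shown because these are the mesenchymal structural genes that differed most between the lines. Of the 10 genes, 5 were found in the RefSeq promoter table (CDH2, FN1, VIM, ZEB1 and ZEB2, build GRCh38.p14). The sequences are 5′ to 3′ on the strand of the gene and end before the outermost annotated start of the gene. Capitals mark the cAMP response element (CRE) TGACGTCA and the GC box GGGCGG.
VIM, chr10:17227991-17228240, plus strand: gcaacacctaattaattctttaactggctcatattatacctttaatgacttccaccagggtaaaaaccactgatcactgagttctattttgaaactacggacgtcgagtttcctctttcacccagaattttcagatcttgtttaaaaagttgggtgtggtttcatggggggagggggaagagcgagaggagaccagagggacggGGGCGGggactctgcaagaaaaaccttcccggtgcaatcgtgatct
FN1, chr2:215436173-215436318, minus strand: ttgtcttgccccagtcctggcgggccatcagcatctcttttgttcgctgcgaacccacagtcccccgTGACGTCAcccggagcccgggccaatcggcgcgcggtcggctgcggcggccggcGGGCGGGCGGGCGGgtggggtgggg
In the 250 bases before the RefSeq start, searched on both strands, VIM held 1 GC box and FN1 held 1 CRE and 6 GC boxes, some of them overlapping each other. The remaining 104 bases of the FN1 window lie within the gene as GENCODE annotates it and are not printed. A GC box was present in 42.6% of 35116 such windows and the CRE in 1.65%. The E-box CAGGTG, which SNAI and ZEB factors bind, was present in 17.5% of windows, the HNF4 motif CAAAGTCCA in 0.325% and the AP-1 site TGANTCA in 6.57%. These 3 motifs had no match in the VIM or FN1 window, which says only that these letters are not in these 250 bases. The VIM window had a GC content of 46% and the FN1 window one of 76.4%.

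HNF4A, summed over the 12 isoform rows of the tables, was at 30.81 to 31.95 TPM in the parental libraries and its line means were 613.5 to 1071 TPM. In each library of a line the row named for its own isoform held 99.43% to 99.9% of that sum, by the names in the table of that line. The rows of isoforms 4 and 5 carry exchanged names in the tables of these 2 lines. By the row order of the other tables, the isoform 4 line would hold the isoform 5 transcript and the isoform 5 line the isoform 4 transcript, and which naming is right could not be told from the tables. The lines are named here as labelled. In the isoform 3 line, replicate 1 stood apart with 406.9 TPM of HNF4A against 833.5 and 771.8 TPM, and the VIM results that change without it are given both ways. All 8 epithelial markers checked, such as KRT8, KRT18 and CDX2, were at 1 TPM or more on average, with a summed level of 2630 to 5747 TPM per library. Of the fibroblast markers 1 of 8 (COL1A1) reached 1 TPM on average, with a summed level of 8.79 to 16.9 TPM for the list. In the parental cells COL1A1 was at 13 TPM, PDGFRB at 1.09 TPM and COL3A1 at 0.383 TPM, while COL1A2 and THY1 were near 0. Of the blood cell markers 3 of 8 reached 1 TPM (sum 6.97 to 38.98 TPM), as did 1 of 6 endothelial markers (PECAM1, sum 1.98 to 7.05 TPM). Between 27884 and 30550 genes were above 0 TPM per library. Reads per library are unknown from TPM, and no counting error was computed.

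In the parental cells the genes spanned a wide range of levels. EPCAM was the highest at 513.8 TPM ± 11 (SD, n = 3), followed by CDH1 at 31.0 TPM ± 1.96, VIM at 14.1 TPM ± 0.461, SNAI1 at 11.3 TPM ± 0.297 and FN1 at 4.75 TPM ± 0.104. SNAI2 and ZEB1 were near 1 TPM (1.2 TPM ± 0.223 and 1.1 TPM ± 0.0704), and CDH2 was at 0.245 TPM ± 0.0762. ZEB2 and TWIST1 were at or near 0. HCT116 cells thus carried both epithelial adhesion transcripts and VIM, with SNAI1 as the most abundant of the 5 transcription factors.

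**Figure D1:**
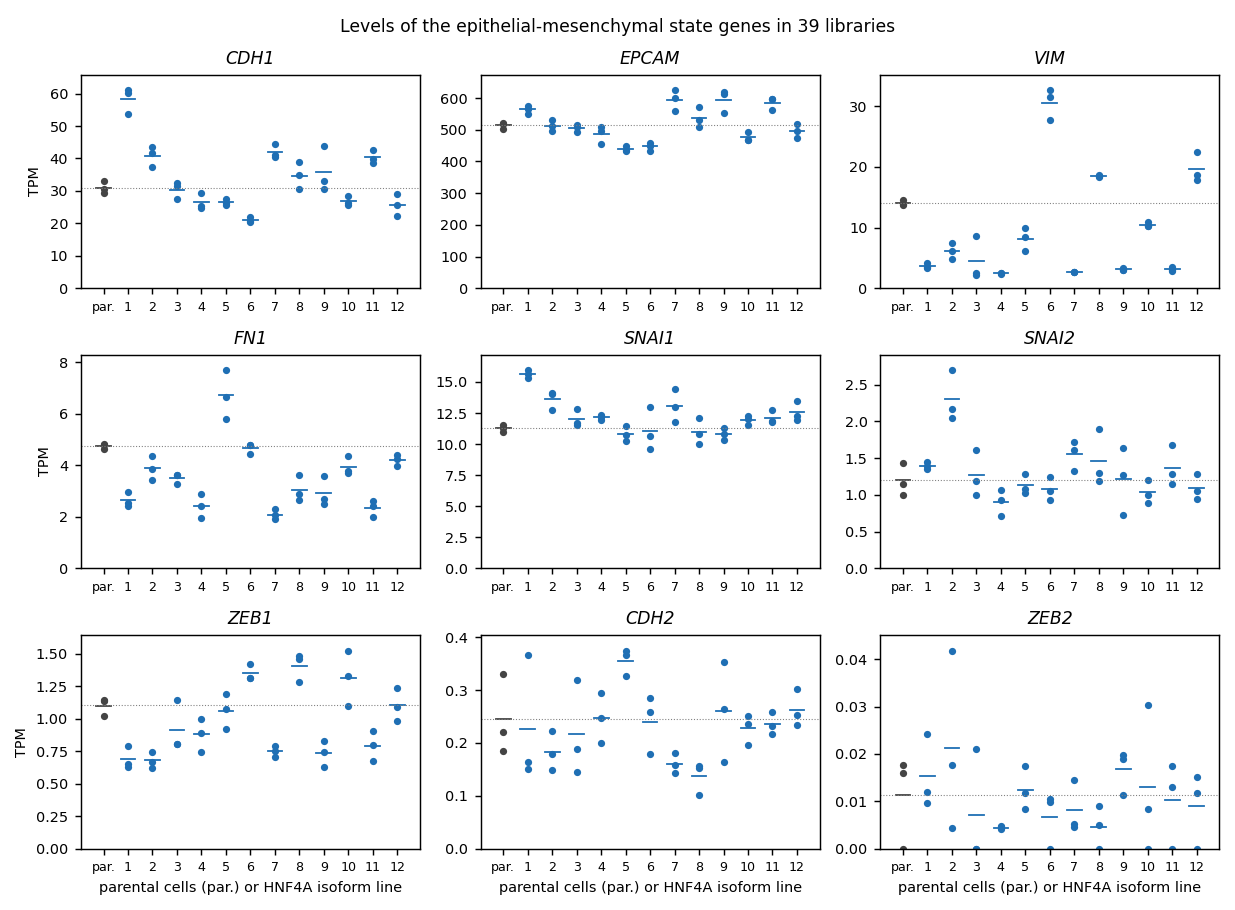
Levels in TPM (linear axes from 0) of 9 of the 10 genes in each of the 39 libraries, for parental cells (par., grey) and the 12 HNF4A isoform lines (blue); points are libraries, short bars are means of 3 libraries and the dotted line is the parental mean. VIM spans 2.126 to 32.6 TPM, CDH1 is highest in the isoform 1 line, and ZEB2 stays under 0.05 TPM. TWIST1, at 0 TPM in 38 of 39 libraries, is not drawn.

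Each line was compared with the parental cells to ask which of these genes differ when 1 isoform is produced. A gene was called in a line at an adjusted p under 0.05 (limma on log2(TPM + 1), Benjamini-Hochberg over 15003 genes) together with a log2 fold change of 1 or more in either direction. By this rule 8 of the 72 combinations of a tested gene and a line were called, and all 8 were VIM. Over all genes tested, 1.51% of such combinations were called. With the adjusted p alone and no minimum fold, 32 of 72 passed, against 30.7% over all genes. All fold changes below are on the log2(TPM + 1) scale, which makes changes of low genes look smaller, and all 12 comparisons share the same 3 parental libraries.

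VIM lies on chromosome 10 from 17228259 to 17237593 (GRCh38, plus strand) and encodes the intermediate filament of mesenchymal cells. It was called lower in 7 lines (isoforms 1, 2, 3, 4, 7, 9 and 11) and higher in 1 (isoform 6). Over the 39 libraries its level ran from 2.126 to 32.6 TPM, a 15.3-fold range, with a median of 6.135 TPM.

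The parental libraries had 13.76, 14.61 and 13.87 TPM of VIM. In the isoform 6 line VIM was at 27.67, 32.6 and 31.45 TPM. All 3 of these libraries lay above every other library of the study, and the rise was 1.06 ± 0.218 (SE, log2 fold change; adjusted p = 0.00154). In that line 0.0933% of all genes were called higher, 14 of 15003.

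With all libraries kept, the isoform 4 line had the lowest mean, with 2.337, 2.586 and 2.46 TPM. VIM fell there by 2.12 on the log2 scale (SE 0.218, adjusted p = 1.94e-08), and 0.313% of all genes were called lower in that comparison. The isoform 7 line had 2.607, 2.656 and 2.71 TPM and fell by 2.04 (adjusted p = 7.25e-09), where 0.96% of genes were called lower. These groups lay close together and far below the parental libraries.

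VIM was at 2.958, 3.394 and 3.061 TPM in the isoform 9 line and at 2.899, 3.046 and 3.581 TPM in the isoform 11 line. The log2 fold changes were -1.87 and -1.86 (adjusted p = 1.28e-07 and 5.74e-08), with 0.44% and 0.653% of all genes called lower. The isoform 1 libraries had 3.523, 4.167 and 3.379 TPM, and VIM fell by 1.69 (adjusted p = 9.52e-08, 1.78% of genes called lower). Within each of these 3 lines the spread was small beside the distance to the parental cells.

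The isoform 2 and isoform 3 lines were more variable. In the isoform 2 line VIM was at 6.129, 7.406 and 4.784 TPM and fell by 1.10 (adjusted p = 8.46e-05, 1.37% of genes called lower). This call was lost after another scaling of the libraries or without replicate 3 of that line, which left 6 lines called lower. VIM in isoform 2 was then just short of the minimum fold, at -0.99 (adjusted p = 0.000283) and -0.96 (adjusted p = 0.00144). In the isoform 3 line VIM was at 8.558, 2.562 and 2.126 TPM and fell by 1.67 (adjusted p = 9.59e-07, 0.153% of genes called lower). The high value belongs to replicate 1, the library with the lowest HNF4A level of any line, and without it the log2 fold change was -2.18 (SE 0.129, adjusted p = 5.59e-14).

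The other lines lay nearer to the parental cells. The isoform 5 line had 9.852, 8.449 and 6.135 TPM of VIM and a log2 fold change of -0.74 (adjusted p = 0.0195), which passed the p threshold but not the minimum fold. That adjusted p became 0.126 without the third library of the line and 0.0645 without parental replicate 2. The isoform 8 libraries (18.54, 18.32 and 18.67 TPM) and the isoform 12 libraries (18.72, 22.5 and 17.89 TPM) all lay above the parental ones, with log2 fold changes of 0.37 and 0.45 (adjusted p = 0.196 and 0.175). The isoform 10 libraries (10.24, 10.27 and 10.85 TPM) all lay below, with a log2 fold change of -0.40 (adjusted p = 0.158).

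In no line did the VIM libraries overlap the parental ones, while 45.1% of gene and line combinations over all genes showed no overlap. The spread that all groups share was set in part by replicate 1 of the isoform 3 line. Without it the standard error of VIM fell from 0.218 to 0.115 and the differences of the isoform 8, 10 and 12 lines passed the p threshold (adjusted p = 0.0124, 0.00699 and 0.0064) with unchanged fold changes under the minimum. VIM then passed the p threshold in all 12 lines, higher in 3 and lower in 9, and the calls with the minimum fold stayed at 7 lower and 1 higher. The authors' deposited comparison gives the same numbers of lines, with an adjusted p under 0.05 in 3 lines for higher and 9 for lower VIM. For the isoform 3 line it gives a log2 fold change of -2.19, against -1.67 here with all 3 libraries and -2.18 without replicate 1. Its values rest on normalized counts and not on log2(TPM + 1), so the sizes are not on the same scale.

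**Figure D2:**
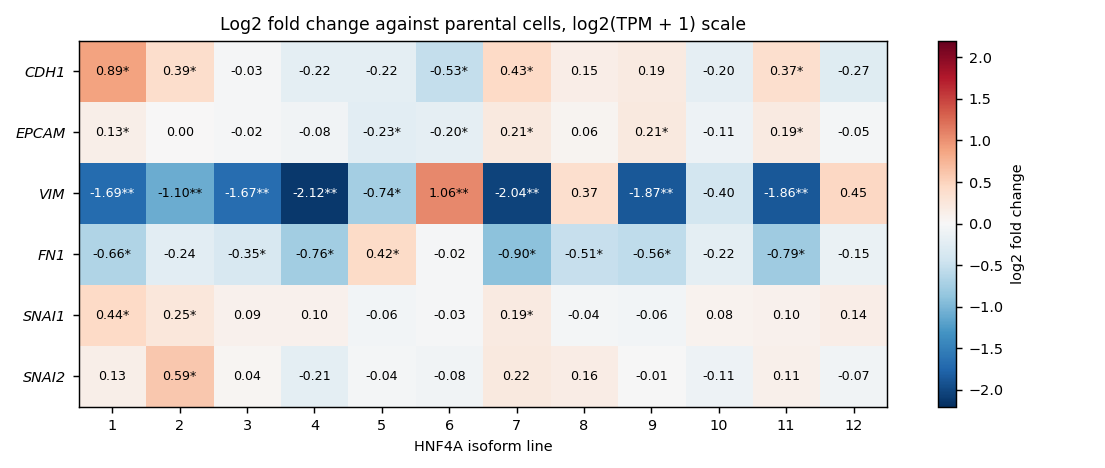
Log2 fold change against parental cells, on the log2(TPM + 1) scale, of the 6 tested genes (rows) in the 12 isoform lines (columns); red is higher, blue is lower, 1 asterisk marks an adjusted p under 0.05 and 2 asterisks mark in addition a log2 fold change of 1 or more in size. The double asterisks are all in the VIM row, with -2.12 for isoform 4 as the lowest and 1.06 for isoform 6 as the highest value.

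VIM also differed widely between the lines themselves. In the 66 pairs of lines, VIM was called in 36, and 46 pairs passed the adjusted p alone. Over all genes, 1.41% of gene and pair combinations were called. The range of its line means was 3.19 on the log2(TPM + 1) scale, and 59 of 15003 genes (0.393%) had a larger one, against a median range of 0.45. A gene called higher in some lines and lower in others was rare, with 32 of 15003 genes (0.213%) in that position, VIM among them. In the order of the levels, the isoform 6 line was followed by isoform 12, isoform 8, parental cells, and isoforms 10, 5, 2, 3, 1, 11, 9, 7 and 4. With all libraries, 1 pair of neighbours in this order differed at an adjusted p under 0.05, isoform 2 above isoform 3 (adjusted p = 0.0442). Without replicate 1 of the isoform 3 line, that line fell to 2.34 TPM, the lowest mean of all, and VIM was called in 38 pairs and passed the adjusted p alone in 53. Of the 12 pairs of neighbours 6 then differed: isoform 6 above 12 (adjusted p = 0.00041), isoform 8 above the parental cells (0.0124), these above isoform 10 (0.00699), isoform 10 above 5 (0.02), isoform 5 above 2 (0.00936) and isoform 2 above 1 (0.000447).

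Isoforms that differ by 1 named feature were compared in the same fit. By the standard isoform nomenclature, which is not in the labels, isoforms 2, 5, 8 and 11 have an insertion of 10 residues in the C-terminal region, isoforms 3, 6, 9 and 12 have a short C-terminus, isoforms 4, 5 and 6 include exon 1B, and isoforms 7 to 12 start from the P2 promoter. VIM was 2.42 ± 0.218 (SE, log2) higher in the isoform 8 line than in the isoform 7 line (adjusted p = 3.9e-09) and 1.38 higher in isoform 5 than in isoform 4 (adjusted p = 4.3e-05). For the same feature VIM was 1.46 higher in isoform 10 than in isoform 11 (adjusted p = 1.65e-05), and isoform 2 lay 0.59 above isoform 1 (adjusted p = 0.062, or 0.000447 without replicate 1 of isoform 3). With the names of isoforms 4 and 5 exchanged, the sign of the difference between isoforms 5 and 4 would be the opposite. By either naming the lines with the insertion did not lie on 1 side of their partners.

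For the short C-terminus, VIM was 3.19 ± 0.218 higher in isoform 6 than in isoform 4 (adjusted p = 3.84e-12), the largest of the 66 differences with all libraries kept. Without replicate 1 of isoform 3, the difference of isoform 6 from isoform 3 was larger, at 3.24. It was 0.85 higher in isoform 12 than in isoform 10 (adjusted p = 0.00614). The isoform 3 and 1 lines differed by 0.02 ± 0.218 and the isoform 9 and 7 lines by 0.18 ± 0.218 (adjusted p = 0.956 and 0.633). Without replicate 1 of isoform 3, the difference of isoform 3 from isoform 1 turned to -0.49 ± 0.129 (adjusted p = 0.00375). Neither value of that pair reached the minimum fold. With the names of isoforms 4 and 5 exchanged, the partner of isoform 6 would be the line labelled isoform 5, above which it lay by 1.81 (adjusted p = 2.06e-06).

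When the 12 lines were taken as the units, none of the 6 genes was called between isoform classes in any of 4 contrasts. Over all genes 1.95% were called for isoforms 4-6 against 1-3, 0.52% for 7-9 against 1-3, 0% for 10-12 against 7-9 and 0.00667% for the short C-terminus against the other forms. For VIM the contrast of isoforms 4-6 with isoforms 1-3 was 0.89 ± 0.824 (SE, log2; adjusted p = 0.431), and that of the short C-terminus with the other forms 0.69 ± 0.618 (adjusted p = 0.593). These became 1.05 ± 0.859 and 0.57 ± 0.644 without replicate 1 of isoform 3 (adjusted p = 0.361 and 0.688). With no minimum fold, 3 genes passed in the contrast of isoforms 4-6 with isoforms 1-3, where 34.6% of all genes did. CDH1 was 0.74 ± 0.181 lower in the exon 1B lines (log2 difference of -0.74, adjusted p = 0.0141), SNAI1 0.25 lower (-0.25, adjusted p = 0.0345) and SNAI2 0.36 lower (-0.36, adjusted p = 0.0387). At an unadjusted p under 0.05 the 4 contrasts, in the same order, held 4, 1, 0 and 1 of the 6 genes, against 46.2%, 31.9%, 7.55% and 18.2% of all genes.

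VIM-AS1, an antisense RNA, lies on the minus strand of chromosome 10 from 17214239 to 17229985, and the gene spans share 1727 bases. The kit keeps strand, but whether the quantification used it is not given in the sources used here, so reads of the shared bases could be assigned to either gene. VIM-AS1 was at 1.17, 1.535 and 1.381 TPM in the parental cells and at 0.108 to 1.85 TPM over all libraries. In a fit with no filter on low values it passed the adjusted p as lower in 6 lines (isoforms 1, 2, 4, 7, 9 and 11), all of them lines in which VIM fell. In the filtered fit 38.7%, 35.6%, 10.1%, 26.2%, 11.8% and 24% of all genes passed as lower in these lines, in that order. The isoform 3 line, with 1.169 TPM in replicate 1 and 0.527 and 0.453 TPM in the others, did not pass (adjusted p = 0.0776). In the isoform 6 line, where VIM was highest, VIM-AS1 was at 1.557, 1.464 and 1.768 TPM, a log2 fold change of 0.14 ± 0.171 (SE, adjusted p = 0.827).

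The genes whose group means followed VIM most closely over the 13 groups were RBM6 (Pearson r = 0.923, mean level 37.6 TPM), LOC647996 (r = 0.904, 1.12 TPM) and CREB3L1 (r = 0.886, 1.97 TPM). These are descriptions of 13 means, picked as the highest of 15003 genes. RBM6 encodes an RNA-binding protein and CREB3L1 a membrane-bound transcription factor of the endoplasmic reticulum.

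CDH1 lies on chromosome 16 from 68737225 to 68835548 (GRCh38) and encodes E-cadherin, the adherens junction protein whose loss marks the mesenchymal state. The parental libraries had 29.23, 30.63 and 33.1 TPM. In the isoform 1 line CDH1 was at 60.03, 53.59 and 60.98 TPM, all above every other library of the study. The log2 fold change was 0.89 ± 0.101 (SE, adjusted p = 8.81e-09), a change that passed the p threshold and fell short of the minimum fold. After scaling by the median of ratios it was 1.02 and was called, and the authors' deposited table gives 1.05.

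At the other end stood the isoform 6 line with 22.04, 20.69 and 20.57 TPM of CDH1, the line with the highest VIM. Its libraries lay below all parental ones, with a log2 fold change of -0.53 (adjusted p = 0.000662). CDH1 also passed the p threshold as higher in the isoform 2 line (37.31, 41.69 and 43.54 TPM, 0.39, adjusted p = 0.00175), in isoform 7 (40.39, 41.07 and 44.37 TPM, 0.43, adjusted p = 0.00111) and in isoform 11 (39.77, 42.68 and 38.54 TPM, 0.37, adjusted p = 0.00421). All 3 of these lines were among those in which VIM fell. Of all genes, 19.8%, 19.7%, 13.4% and 14.5% passed as higher in isoforms 1, 2, 7 and 11, and 4.13% as lower in isoform 6. In the isoform 4 line, which had the lowest VIM mean with all libraries kept, CDH1 was at 29.39, 25.45 and 24.59 TPM and overlapped the parental libraries (log2 fold change of -0.22, adjusted p = 0.14).

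The remaining 6 lines had CDH1 means of 25.6 TPM (isoform 12) to 35.9 TPM (isoform 9) and did not pass the test used here. All libraries of isoforms 5, 10 and 12 still lay below the parental ones. The authors' deposited comparison, on normalized counts, passes CDH1 as higher in 6 lines and as lower in 4. Among them are isoforms 8 and 9 as higher (0.19 and 0.21) and isoforms 5, 10 and 12 as lower (-0.23, -0.16 and -0.25). Between lines, 5 of 66 pairs were called, and the largest difference was 1.42 ± 0.101 (log2) between isoforms 1 and 6 (adjusted p = 4.2e-13). The range of the line means was 1.42, and 774 genes (5.16%) had a larger one. In the order of the levels the isoform 1 line differed from its neighbour, isoform 7 (log2 difference of 0.46, adjusted p = 0.000466), and no other pair of neighbours passed. Among isoforms that share the same C-terminal form, CDH1 was lower with exon 1B in all 3 pairs: by -1.11 in isoform 4 against 1, by -0.60 in isoform 5 against 2 and by -0.51 in isoform 6 against 3 (adjusted p = 1.07e-10, 8.25e-06 and 0.000398).

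EPCAM, on chromosome 2 from 47345158 to 47387601, varied little. Its libraries ran from 432.6 to 624.1 TPM, a 1.44-fold range, with 501.1, 520.7 and 519.5 TPM in the parental cells. It passed the p threshold as higher in the isoform 1, 7, 9 and 11 lines and as lower in the isoform 5 and 6 lines, and was called in none. The shares of all genes that passed as higher in isoforms 1, 7, 9 and 11 were 19.8%, 13.4%, 10.9% and 14.5%. As lower, 5.22% of all genes passed in isoform 5 and 4.13% in isoform 6. The isoform 7 libraries had 601.3, 624.1 and 558.4 TPM, a log2 fold change of 0.21 ± 0.0476 (SE, adjusted p = 0.000722), and the isoform 9 libraries 552.4, 619.8 and 612.1 TPM (0.21, adjusted p = 0.0015). The lowest line was isoform 5 with 432.6, 447.2 and 435.4 TPM (-0.23, adjusted p = 0.00114). The range of its line means, 0.44, was close to the median over all genes of 0.45. The rise in the isoform 1 line (0.13, adjusted p = 0.0164) did not pass without parental replicate 1 (adjusted p = 0.0668) or without replicate 3 of that line (0.0626). After scaling by the median of ratios it was 0.27 (adjusted p = 1.06e-05), and the authors' deposited table gives 0.28.

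FN1, on the minus strand of chromosome 2 from 215360440 to 215436172, encodes fibronectin, a matrix glycoprotein. The parental libraries had 4.63, 4.793 and 4.824 TPM. The isoform 5 line was the only one above them, with 7.68, 6.65 and 5.814 TPM and a log2 fold change of 0.42 ± 0.107 (SE, adjusted p = 0.00751), which did not pass without its highest library (0.33, adjusted p = 0.0742). In 10 lines all 3 libraries lay below the parental ones. In 7 of these (isoforms 1, 3, 4, 7, 8, 9 and 11) the difference passed the p threshold. That of isoform 3 did not pass without its replicate 3 (-0.32, adjusted p = 0.0661). Over all genes, 45.1% of gene and line combinations showed no overlap in either direction, and 17.9% passed the p threshold as lower. The isoform 6 libraries (4.799, 4.77 and 4.452 TPM) overlapped the parental ones.

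The lowest FN1 levels were in the isoform 7 line, with 1.911, 2.062 and 2.301 TPM and a log2 fold change of -0.90 (adjusted p = 6.31e-08). This is less than the minimum fold on the log2(TPM + 1) scale. With a pseudocount of 0.1 TPM, which understates low genes less, it was -1.15 and was called, and the authors' deposited table gives -1.05. In the isoform 4 line FN1 was at 2.882, 2.427 and 1.964 TPM (-0.76, adjusted p = 6.47e-06), and in the isoform 11 line at 2.598, 2.434 and 1.999 TPM (-0.79, adjusted p = 7.69e-07). Of the 66 pairs of lines 4 were called, the largest being isoform 5 above isoform 7 by 1.31 ± 0.107 (adjusted p = 1.57e-11). FN1 and VIM both passed the p threshold as lower in isoforms 1, 3, 4, 7, 9 and 11. In isoform 5 FN1 passed as higher and VIM as lower. In isoforms 6, 8 and 12 all VIM libraries lay above the parental ones. The FN1 libraries overlapped the parental ones in isoform 6 and lay below them in isoforms 8 and 12.

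CDH2, the N-cadherin that mesenchymal cells carry in place of E-cadherin, stayed at 0.101 to 0.375 TPM in all 39 libraries, with a median of 0.222 TPM. The isoform 5 libraries were the highest as a group (0.375, 0.326 and 0.367 TPM), and the parental ones had 0.33, 0.221 and 0.184 TPM. In a fit with no filter it passed the p threshold in none of the 12 lines. CDH1 was at 20.57 TPM or more in every library.

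SNAI1, a repressor of CDH1 encoded on chromosome 20 from 49982999 to 49988886, was at 11.57, 11.26 and 10.98 TPM in the parental cells and at 9.594 to 15.92 TPM overall. It was highest in the isoform 1 line, with 15.61, 15.92 and 15.34 TPM, all above the parental libraries (log2 fold change of 0.44 ± 0.0755, adjusted p = 1.05e-05). That line also had the highest CDH1. The isoform 2 line followed with 14.07, 14.01 and 12.78 TPM (0.25, adjusted p = 0.00556). The isoform 7 line had 14.42, 12.95 and 11.8 TPM (0.19, adjusted p = 0.0424), and this did not pass with no filter (adjusted p = 0.0811) or with only the 6 libraries compared (0.0898), or in 5 of the 6 fits that left out 1 of these libraries (adjusted p of 0.0548 to 0.26). As higher in isoforms 1, 2 and 7, 19.8%, 19.7% and 13.4% of all genes passed the p threshold. Reads could be shared with the pseudogene SNAI1P1, which was at 0 TPM in 35 of 39 libraries and at most at 0.0876 TPM.

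SNAI2, the related repressor Slug, was at 1.151, 0.998 and 1.438 TPM in the parental cells. In the isoform 2 line it was at 2.167, 2.692 and 2.04 TPM, all above the parental libraries and above every library of the other lines. The log2 fold change was 0.59 ± 0.131 (SE, adjusted p = 0.000348), and isoform 2 differed from its neighbour in the order, isoform 7 (log2 difference of 0.37, adjusted p = 0.0265). Passing as higher in isoform 2 was seen for 19.7% of all genes. In 11 lines SNAI2 did not pass, and their libraries overlapped the parental ones.

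ZEB1 had a mean of 0.982 TPM over the 39 libraries, just under the filter, and ran from 0.62 to 1.52 TPM. The parental libraries had 1.02, 1.146 and 1.136 TPM. In the fit with no filter ZEB1 passed the p threshold as lower in 5 lines, isoforms 1, 2, 7, 9 and 11, and in none as higher. The lowest was the isoform 2 line with 0.669, 0.62 and 0.745 TPM (log2 fold change of -0.32 ± 0.08, adjusted p = 0.00247). In the isoform 6 line ZEB1 was at 1.418, 1.313 and 1.314 TPM and in isoform 8 at 1.281, 1.457 and 1.484 TPM, all above the parental libraries without passing the test (adjusted p = 0.343 and 0.113). All 5 lines with lower ZEB1 were among the 7 in which VIM was called lower. In the filtered fit 38.7%, 35.6%, 26.2%, 11.8% and 24% of all genes passed as lower in isoforms 1, 2, 7, 9 and 11. The authors' deposited comparison passes ZEB1 as lower in 3 lines, isoforms 1, 2 and 9. Its adjusted p was 0.0501 in isoform 7 and 0.107 in isoform 11.

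ZEB2 was at most at 0.0418 TPM, and 8 libraries were listed at 0. TWIST1 was listed at 0 TPM in 38 of 39 libraries and at 0.0322 TPM in replicate 3 of the isoform 7 line. Differences between groups were not detectable at these levels.

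Relations between the 6 tested genes were computed over the means of the 12 lines (15 pairs of genes, two-sided permutation tests with 100000 permutations, Benjamini-Hochberg over the 15). The points share the scale of TPM, and each is 1 line. How often other pairs of genes reach such values over these 12 means was not tested. The relations are therefore not shown to be particular to these genes. CDH1 and EPCAM levels were positively related, with a Pearson r of 0.79 (permutation p = 0.00234, adjusted 0.0175) and a Spearman rho of 0.79 (adjusted 0.016). With isoforms 1 and 6 left out, whose CDH1 lay farthest from its median, r was 0.805. The lines that passed as higher than parental cells were not all shared, since isoform 2 passed for CDH1 only and isoform 9 for EPCAM only. EPCAM and FN1 ran in opposite directions, with an r of -0.82 (permutation p = 0.001, adjusted 0.015) and a rho of -0.776 (adjusted 0.016), and r was -0.806 without isoforms 7 and 9. For VIM and FN1 the rho was 0.825 (permutation p = 0.00142, adjusted 0.0109) and the r 0.617 (adjusted 0.0912), or 0.528 without isoforms 6 and 12. With replicate 1 of isoform 3 left out of its mean, the rho of VIM and FN1 was 0.685 and that of VIM and CDH1 -0.434.

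CDH1 and VIM, the pair most often read as opposites, had an r of -0.58 (permutation p = 0.048, adjusted 0.0912) and a rho of -0.524 (permutation p = 0.083, adjusted 0.156). Without isoforms 1 and 6, which carry the highest CDH1 and the highest VIM, r was -0.408. Their relation therefore did not pass the correction and was weaker without those lines. CDH1 and its repressor SNAI2 were positively related by rank (rho = 0.825, adjusted permutation p = 0.0109), with an r of 0.639 (adjusted 0.0912).

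**Figure D3:**
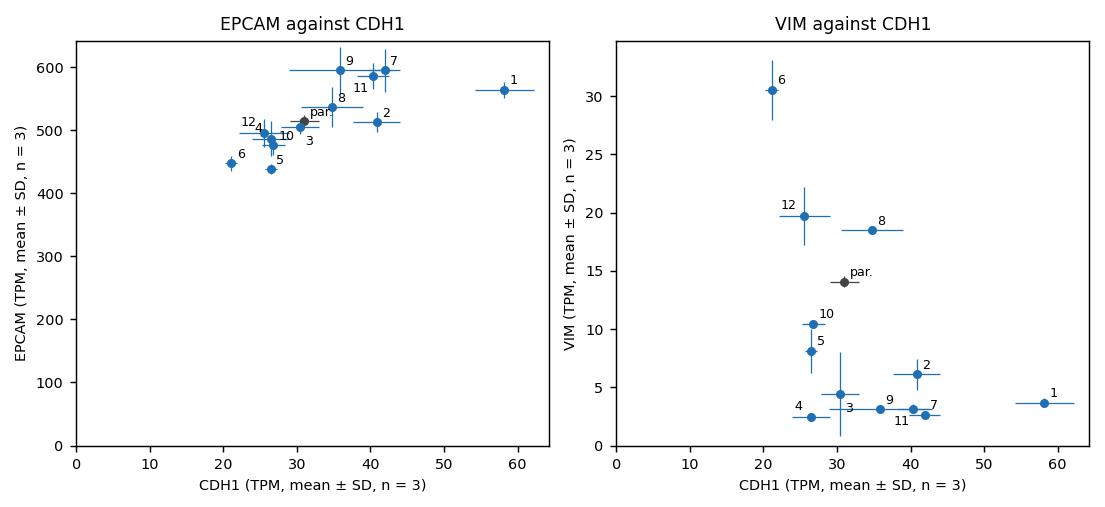
Mean levels in TPM of EPCAM (left) and VIM (right) against CDH1, with linear axes from 0; each point is parental cells (par., grey) or 1 isoform line (blue, numbered), and bars are the SD of 3 libraries. EPCAM rises with CDH1 over the 12 lines (r = 0.79), while on the right isoform 6 is high and isoform 1 low for VIM and lines of like CDH1, such as 12, 10, 5 and 4, differ in VIM from 19.7 to 2.46 TPM.

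Wider lists of genes of the same programmes were examined. Of 24 other epithelial genes (junction and polarity genes, splicing regulators and transcription factors), 23 were tested, and of 24 other mesenchymal genes 9, since genes such as the collagen gene COL1A2, the protease gene MMP2 and the matrix protein gene POSTN were near 0. Over the 12 lines, 4 epithelial gene and line combinations of 276 were called higher and 1 lower. For the mesenchymal list it was 2 higher and 1 lower of 108, for 5 tested of 12 other transition-related transcription factors 1 higher and 1 lower of 60, and for 9 tested of 12 TGF-beta and SMAD genes 0 of 108. Against this, 1.51% of combinations over all genes were called. With the adjusted p alone, the epithelial list had 71 higher and 38 lower, the mesenchymal list 21 higher and 32 lower, the transcription factors 6 higher and 19 lower and the TGF-beta list 20 higher and 16 lower. These are 39.5%, 49.1%, 41.7% and 33.3% of the combinations of each list, against 30.7% over all genes, of which 12.8% were higher and 17.9% lower.

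**Figure D4:**
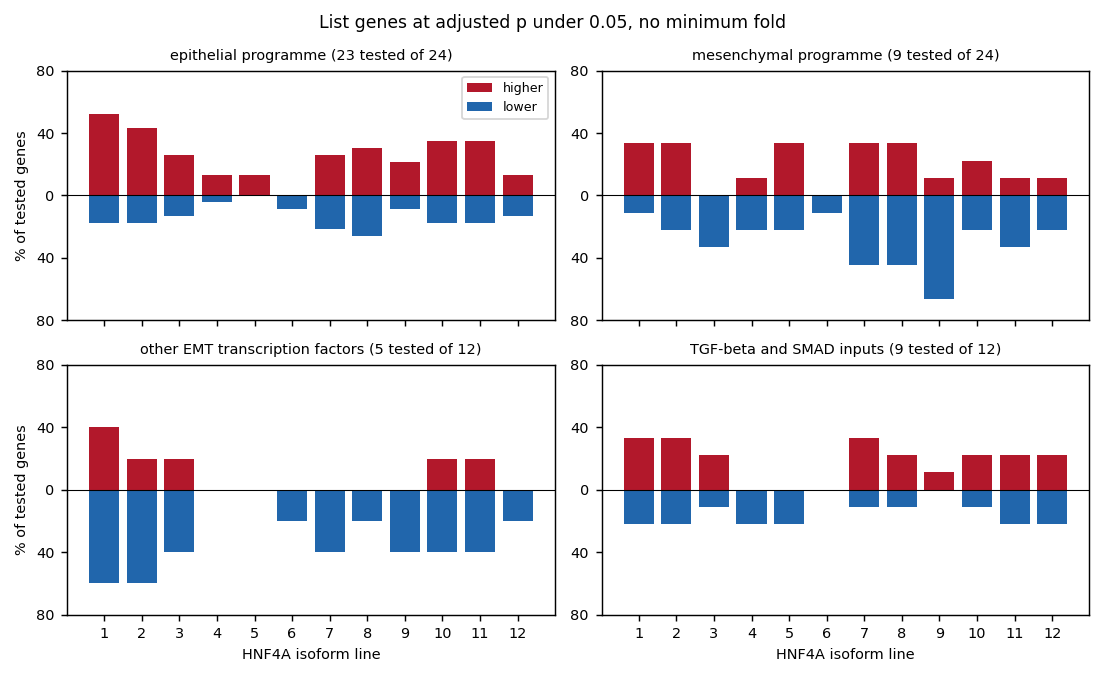
Share of the tested genes of 4 lists that passed an adjusted p under 0.05 against parental cells with no minimum fold (vertical axis in percent), as higher (red, upwards) or lower (blue, downwards), in each of the 12 isoform lines. The epithelial list reaches 12 of 23 genes higher in isoform 1, and the mesenchymal list 6 of 9 lower in isoform 9.

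In the isoform 1 line 12 of 23 epithelial genes passed the p threshold as higher and 4 as lower, with a median log2 fold change of 0.31 against -0.11 over all genes. In that comparison 58.5% of all genes passed the p threshold and 4.52% were called. In the isoform 6 line none was higher and 2 of 23 were lower, where 10.1% of all genes passed, and the median was -0.01 for the list and for all genes. For the mesenchymal list, the lowest median was -0.39 in the isoform 9 line, where 6 of 9 genes were lower and 1 higher and the median over all genes was 0. The share over all genes that passed in the isoform 9 line was 22.7%.

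TJP3, a tight junction scaffold protein also known as ZO-3, was called higher in the isoform 1 and 2 lines. It was at 14.1 TPM ± 1.12 (SD, n = 3) in parental cells and had its highest mean, 52.2 TPM, in isoform 1 (log2 fold change of 1.81, adjusted p = 5.65e-13). S100A4, a calcium-binding protein often used as a fibroblast marker, was called higher in the same lines. It was at 129 TPM ± 10.5 in parental cells and at 313 TPM in isoform 2 (1.27, adjusted p = 1.16e-11), with its lowest value in isoform 9 (-0.64, adjusted p = 2.45e-05). CDH1 was also higher and VIM lower in the isoform 1 and 2 lines than in parental cells.

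Other genes of these lists called in a single line were named after their values were seen. In the isoform 1 line these included CRB3 (1.15) and PRSS8 (1.00), an apical polarity protein and an epithelial surface protease, and SNAI3 (1.05), a relative of SNAI1, as higher. LOXL2 (-1.07), a lysyl oxidase that cross-links matrix, was called lower in it. In the isoform 2 line MAL2 (-1.86), a protein of apical transport, was called lower. None of the list genes was called in the isoform 6 line.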

How the data were processed

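Trimmomatic 0.36, FastQC 0.11.5, kallisto 0.44.0, DESeq2 1.22.2 and build GRCh38.p12 are named in the submitters' processing notes without settings or annotation. The authors deposited 13 tables of 45446 rows with TPM per library, and in the 12 line tables their own comparison with parental cells: per the file headers, a mean normalized count (a signal), the log2 fold change, its error, a statistic (a score) and p-values, raw and adjusted; none entered a fit. The 12 HNF4A rows were summed.

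The 15003 genes that averaged 1 TPM or more were fitted with limma 3.58.1 in R 4.3.3 on log2(TPM + 1), with 13 group coefficients, a mean-variance trend and 26 residual degrees of freedom; 12 line means entered the isoform class model (6 residual degrees of freedom). The code was tested on simulated data. TPM keeps no depth. The members, lists and tests were chosen with earlier results of these data known. Named genes were all 10 members, HNF4A, list genes called in at least 2 lines (at most 4 per list) and the 3 genes most like a called member. Alternatives were another pseudocount, filter or scaling, leaving out libraries, only the 6 libraries compared, a replicate block, no minimum fold and the authors' comparison. The 6 libraries of isoforms 4 and 5 have a group but no replicate number. Coordinates are from GENCODE for GRCh38, promoters from RefSeq. Values of some genes on the lists are not reported here.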

Additional observations from a re-analysis of the deposited data

Results flagged for a closer look

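For 4 of the genes, lines differed from the parental cells in opposite directions at an adjusted p under 0.05 (limma). Pairs of such lines were chosen for lying on opposite sides of the same 3 parental libraries, so a difference within a pair follows from that choice, and the values are a description. VIM was higher in 1 line and lower in 8, and the widest difference was 3.19 on the log2 scale between isoforms 6 and 4 (SE 0.218). CDH1 was higher in 4 lines and lower in 1, and isoform 1 exceeded isoform 6 by 1.42 (SE 0.101). FN1 was higher in 1 line and lower in 7, and isoform 5 exceeded isoform 7 by 1.31 (SE 0.107). EPCAM was higher in 4 lines and lower in 2, and isoform 9 exceeded isoform 5 by 0.44 (SE 0.0476). In each of these 4 widest pairs all 3 libraries of one line lay above all 3 of the other.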

How the results depend on the processing

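The 8 calls against parental cells became 9 with a pseudocount of 0.1 TPM and 10 in the authors' deposited comparison, stayed at 8 in number with no filter, a mean of at least 5 TPM, median-of-ratios scaling or only the 6 libraries compared, and were 32 with no minimum fold. Leaving out 1 library at a time gave 7 to 8. The 45 calls between lines became 55, 45, 41 and 46 with the other pseudocount, no filter, the stricter filter and the scaling, and 42 to 48 without 1 library. The class contrasts gave 0 calls under these settings and 0 to 0 without 1 library, and 3 with no minimum fold. Of 32 single differences that passed the adjusted p, 5 failed to pass in at least 1 fit without a library (11 of 192 fits), and no direction was reversed; SNAI1 in isoform 7 failed most often. The scaling moved the median of all genes in isoform 1 from -0.11 to 0.02 and in isoform 2 from -0.09 to 0.02 (log2). Whether replicate numbers pair the samples was not settled, since the correlations were small and the check cannot exclude a weak pairing. In 0 of 10 numbered lines was every same-number correlation over 0.1 (range -0.0469 to 0.187). In 3 of 10 each library correlated best with its own number, and a replicate block gave 7 calls as against 7 without it. TPM holds no read depth, which limits what can be said of ZEB2, TWIST1 and CDH2. The authors' mean normalized counts per comparison were low for them, at 15.6 to 25.4 for CDH2, 1.75 to 3.91 for ZEB2 and at most 0.181 for TWIST1.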
